A study of Caenorhabditis elegans with 14 samples.

Results

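Fragments of transfer RNA (tRNA) were examined in small RNA libraries of the nematode Caenorhabditis elegans. Genes were taken where the authors' class was tRNA and the sense reads summed over the 14 libraries reached 100, with mitochondrial genes left out. Of 615 tRNA genes, 509 met this rule and are called members here, while 106 did not. The members just inside the threshold were C24H11.t1 with 111 reads, T22A3.t4 with 119 and C31E10.t1 with 126, and the genes just outside it were R11B5.t2 with 82, F14F7.t1 with 89 and C06B8.t1 with 91. The members were thus chosen by their summed reads, so a high total is a description and not a finding. The annotation gave no amino acid for any tRNA gene, so the members were described by gene, by annotated length and by shared count profile.

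The study title concerns the PICS complex, which acts in the maturation of piRNAs, the guide RNAs of the Piwi protein PRG-1. Synchronised late young adults were grown at 20 °C on OP50 bacteria, and RNA of 17 to 30 nucleotides (nt) was sequenced. The 8 libraries called TDP2 came from RNA treated with calf intestinal alkaline phosphatase and then with the decapping enzyme TDP2, from tofu-6(it20), tofu-6(ust94), tofu-6(ust95), tofu-6(yt2), pics-1(tm2417), erh-2(ust101), prg-1(n4503) and the control strain n2. The 6 untreated libraries came from tofu-6(ust94), pics-1(tm2417), erh-2(ust101), prg-1(n4503), tost-1(ust103) and n2. Each library was the only one of its strain and treatment, and the 4 tofu-6 TDP2 libraries, used as replicates of the mutant, came from different alleles. Nothing in the labels says that libraries came from separate cultures, so a p-value here measures no more than how far these libraries vary.

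A tRNA carries an amino acid to the ribosome, is transcribed by RNA polymerase III and is usually encoded by many near-identical gene copies. RNase P gives the mature tRNA its 5′ end, which bears a monophosphate, and nucleases cut mature tRNAs in their loops into fragments that appear in small RNA libraries. The gel-purified RNA was shorter than a whole tRNA, so the reads here come from parts of tRNAs. A phosphatase removes 5′ phosphates, while a decapping enzyme leaves a phosphate where a cap had been.

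Assigned reads, on both strands of all classes, ran from 7928250 to 13469619 in TDP2 libraries and from 6918136 to 11777844 in untreated ones. Other structural RNA differed between the treatments: rRNA took 27.96% to 50.3% of assigned reads with TDP2 and 5.43% to 19.8% without, and snRNA, which is capped in the cell, took 5.44% to 21.8% with TDP2 and 0.235% to 0.380% without. MicroRNAs took 0.810% to 8.35% with TDP2 and 3.93% to 13.5% without. In whole worms, fewer cells of a type and less RNA per cell cannot be told apart.

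The 509 members held 20474472 sense reads, with a median of 991 per gene, and 506 of them had reads in every library. Their counts fell into steps. Of the 253 members with 1000 or more reads, 233 belonged to 16 sets of 4 or more genes whose counts agreed in all 14 libraries within counting error and a further 3%. The sets were defined after the counts were seen and are named here by their member with most reads. In 12 of the 16 sets all genes had 1 annotated length, and 229 of the 233 genes had the main length of their set. The sets rest on agreement of counts alone, so genes of a set are not taken as independent observations. Whether they are copies of the same sequence that share reads was not tested.

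**Figure D1:**
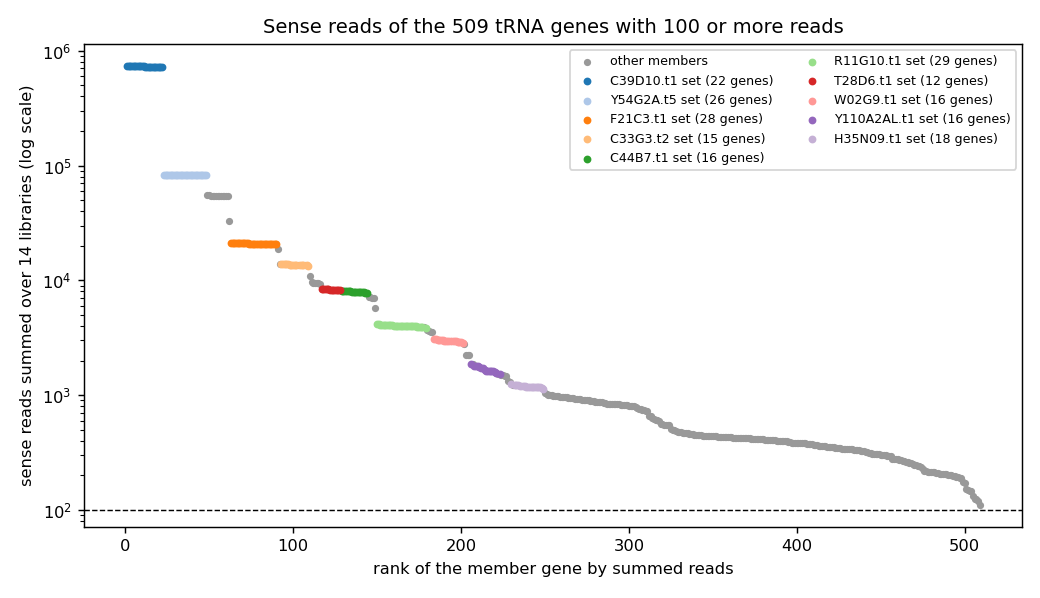
Sense reads of each member summed over 14 libraries (vertical axis, log scale) against its rank (horizontal axis), with 10 sets of 10 or more genes in colour and the threshold of 100 reads dashed. The 22 genes of the C39D10.t1 set lie between 721680 and 736320 reads, and the next member has 83298.

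One set dominated the tRNA reads. The 22 genes of the C39D10.t1 set, each annotated as 72 nt long, held 78.2% of all member reads. C39D10.t1 itself lies on chromosome X at 7906585 to 7906656 on the plus strand, outside protein-coding genes (WBcel235 annotation, matched by gene identifier), and 13 of the 22 genes lie on X. The 10 members with the highest mean level, 5837 to 5897 RPM (reads per 1000000 assigned reads), all belonged to this set. The totals of its 22 genes varied by 0.524% (coefficient of variation), against 0.117% for counting error alone. The named genes rte-1 to rte-5 belonged to it, with totals of 723098 to 733348. The remaining 9 named tRNA genes of the tables all fell below the threshold with 15 to 56 reads each. They were 7 sup and 2 rtw genes, including sup-5 and sup-7, tryptophan tRNA genes known from nonsense suppressor mutations.

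Below it came the 26 genes of the Y54G2A.t5 set with 10.5% of the member reads and the 28 genes of the F21C3.t1 set with 2.86%. At the low end, the 256 members with fewer than 1000 reads together held 0.593%. Members of 72 nt were the most common length class, 266 genes with 91.1% of the reads, followed by 112 genes of 73 nt with 4.73% and 59 of 82 nt with 0.291%. Chromosome X carried 237 of the 509 members, and 279 of all 615 tRNA genes. Of the members, 277 lay outside protein-coding genes, 127 in an intron on the same strand, 95 in an intron on the opposite strand, and 28 had 2 annotated exons.

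Many members lay opposite an annotated ncRNA gene, and those genes held a similar number of reads in all. A gene of this kind was annotated opposite 293 of the 509 members. The 293 ncRNA genes together held 19989473 antisense reads, which run in the direction of the tRNA. Opposite the C39D10.t1 set, 20 of the 22 genes had such a partner. Those partners held 755510 to 801990 antisense reads each, close to the totals of the tRNA genes themselves, and 1 of the tRNA genes had a further partner, W10G6.5, with 6. Over all 509 members, including the 216 with none opposite, the opposite genes held 1.00 (ust95) to 2.12 (erh-2) reads per tRNA read with TDP2. In untreated libraries they held 0.918 (pics-1) to 0.954 (tost-1). The 293 members with such a gene held 17111653 sense reads in all, so these ratios are lower than for those members alone. Whether a read was counted for 1 of the genes or for both cannot be told from the counts. With both added, the share of assigned reads was 20.6% in TDP2 control and 76.1% in untreated control.

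tRNA took a smaller share of the TDP2 libraries than of the untreated library of the same strain, in all 5 strains with both. Members made up 4.21% of assigned reads in tofu-6(ust94) TDP2 and 25.2% in the untreated library (exact Clopper-Pearson 95% intervals 4.20% to 4.23% and 25.1% to 25.2%, which cover counting error only, as do all intervals here). The shares were 2.15% with TDP2 and 25.5% without in pics-1, 1.93% and 30.7% in erh-2, 3.26% and 39.3% in prg-1, and 9.69% and 39.1% in control. The TDP2 and untreated ranges thus did not overlap. The other tofu-6 alleles had 1.78% (it20), 6.69% (ust95) and 4.14% (yt2) with TDP2, and untreated tost-1 had 34.9%. The mean log2 difference, TDP2 minus untreated, was −3.15 ± 0.82 (SD, n = 5 pairs), lower in 5 of 5 pairs, with an exact two-sided sign-flip permutation p = 0.0625, the smallest that 5 pairs can give. Shares are parts of a whole, and the larger rRNA share stands beside this result: outside rRNA the difference was −2.64 (lower in 5 of 5 pairs).

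**Figure D2:**
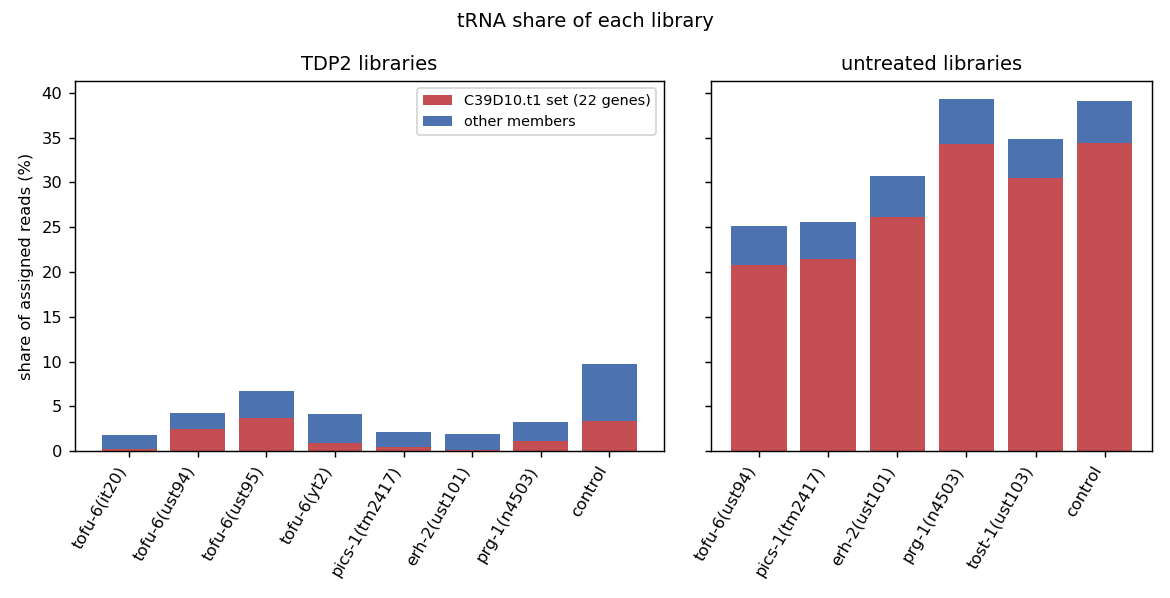
Share of assigned reads (%) taken by the 22 genes of the C39D10.t1 set and by the other 487 members in each TDP2 library (left) and each untreated library (right). The members took 1.78% to 9.69% of TDP2 libraries and 25.2% to 39.3% of untreated libraries, and the 22 genes made most of the difference.

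The 22 genes carried most of this difference. They made up 0.167% (erh-2) to 3.74% (tofu-6(ust95)) of assigned reads in TDP2 libraries and 20.8% (tofu-6(ust94)) to 34.3% (control) in untreated libraries. Of the tRNA reads alone they held 8.61% to 57.4% with TDP2, with a median of 28.1%, and 82.6% to 87.8% without, with a median of 86.0%. Their log2 share difference was −4.87 ± 1.73 (SD, n = 5 pairs; lower in 5 of 5, exact permutation p = 0.0625). The other 487 members took 1.55% to 6.30% with TDP2 and 4.10% to 5.04% without, ranges that overlap. Their difference was −0.95 ± 0.76 (lower in 4 of 5 pairs, exact permutation p = 0.125), and in the control pair it was 0.41. Per microRNA read the difference of all members was −1.43 (lower in 4 of 5 pairs, exact permutation p = 0.125). That of the other 487 members turned to 0.77 and was lower in 1 of 5 pairs.

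Gene by gene, most members that passed the test were lower with TDP2, and a single set was higher. In an edgeR quasi-likelihood fit over all genes and strands, with strain as a block and Benjamini-Hochberg adjustment, 15 of 509 members rose and 273 fell at an adjusted p under 0.05. Of all 21673 features, 42.9% rose and 12.4% fell. The members had a median log2 change of −1.42, against 0.68 over all features. Here and below, all features pool sense and antisense counts, while the members are sense counts only. Among protein genes that act on tRNA, described further below, sense counts had medians of −0.66 (synthetases) and −0.72 (transcription, processing and modification). A background of sense counts alone is not given here. Of the 273 genes that fell, 181 were lower in 5 of 5 pairs, 82 in 4 and 10 in 3, and the 15 that rose did so in 5 of 5. With counts scaled to microRNA reads, 94 members were higher and 51 lower (18.5% and 10.0%), against 61.9% and 1.73% of all features. The medians were then 0.79 for members and 2.92 for all features, so the direction of the member median depended on the scaling. A scaling shifts members and all features together, so the place of the members below all features is no separate result. With 1 summed count per set, 1 of 287 tRNA features rose and 137 fell, against 43.2% and 12.2% of all features.

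All 15 genes that rose belonged to the C33G3.t2 set, genes of 73 nt that were scarce in untreated libraries. Per gene this set averaged 121 RPM in tofu-6(ust94) TDP2 against 20.2 RPM in the untreated library. It had 87.1 RPM with TDP2 and 15.99 without in pics-1, and 175 and 22.4 in erh-2. In prg-1 it had 98.3 RPM with TDP2 and 27.1 without, and in control 386 and 24.7. Every TDP2 library thus lay above every untreated one, and control TDP2 was the highest. Among these genes ZK994.t1, in an intron on chromosome V at 8495302 to 8495374, changed by 2.36 ± 0.38 on the log2 scale (SE; edgeR adjusted p = 0.000452). F53B6.t1 changed by 2.35 ± 0.38 (adjusted p = 0.000466). F49C5.t4, C09B9.t1 and F43C9.t1 stood at 2.34, 2.34 and 2.32. All 15 were also called higher under each scaling, filter, test and left-out pair tried, and the set was called as 1 summed feature. Of all features 17.5% (no filter) to 95.5% (scaled to tRNA reads) were called higher under these settings, with 61.9% when scaled to microRNA reads.

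The C39D10.t1 set showed the largest fall of any set. C39D10.t1 had 9110 reads in tofu-6(ust94) TDP2 against 116293 untreated, 1535 against 103815 in pics-1, and 980 against 99413 in erh-2. It had 4264 reads with TDP2 against 158596 untreated in prg-1, and 14304 against 110876 in control. All TDP2 values lay far below all untreated values, and erh-2 fell the most. The fitted change of C39D10.t1 was −5.35 ± 0.84 (SE; edgeR adjusted p = 0.000390), and the 22 genes ranged from −5.35 to −5.27. F52E10.t4, Y53C10A.t2, Y22D7AL.t4 and ZK622.t2 were the other members with the largest falls, at −5.34 to −5.33. All 22 were called lower under each alternative tried, including scaling to microRNA reads (median −3.27) and to tRNA reads (−1.71). Of all features 0.807% (scaled to tRNA reads) to 19.3% (without the prg-1 pair) were called lower under these alternatives.

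Other sets ranged between these extremes. The R11G10.t1 set of 29 genes had a median of −4.27 and all 29 fell; 28 did so when scaled to microRNA reads and 0 when scaled to tRNA reads. All 16 genes of the C44B7.t1 set fell (median −2.58), as did all 16 of the W02G9.t1 set (−2.29), all 26 of the Y54G2A.t5 set (−1.78) and all 12 of the T28D6.t1 set (−1.53). Scaled to microRNA reads, 0 genes of these 4 sets were called, at medians of −0.50, −0.09, 0.43 and 0.68 in the same order, so the Y54G2A.t5 and T28D6.t1 sets turned direction. Scaled to tRNA reads, the medians of the 4 sets were 1.00, 1.34, 1.86 and 2.07. With the antisense reads of the opposite ncRNA genes added, 8 of the 16 genes of the W02G9.t1 set were called lower, at a median of −0.80. Without the strain block 4 of the 26 genes of the Y54G2A.t5 set were called lower. In the F21C3.t1 set 0 of 28 genes passed the test, with a median of 0.77 (adjusted p 0.0626 to 0.111), near the 0.68 over all features. All 28 were called higher without the pics-1 pair, with DESeq2's test or with scaling to microRNA reads. Of all features 38.6%, 42.8% and 61.9% were called higher under these settings in turn. None of the 16 genes of the Y110A2AL.t1 set (−0.86) and none of the 18 of the H35N09.t1 set (−0.68) passed. Without the prg-1 pair, 16 of 16 (median −1.60) and 17 of 18 (−1.36) of them were called lower, and without the control pair 15 of 16 in the Y110A2AL.t1 set (−1.26). Of the 256 members with fewer than 1000 reads, 118 fell and 0 rose, with a median of −1.17 and a range of −3.30 to 1.02. Scaled to microRNA reads, 47 of them were higher and 0 lower, at a median of 1.02. Of all features 61.9% were higher and 1.73% lower under this scaling, at a median of 2.92. The 118 became 72 without the erh-2 pair, 185 without the prg-1 pair and 64 when scaled to assigned reads only. In turn 8.67%, 19.3% and 4.97% of all features were lower under these settings.

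**Figure D3:**
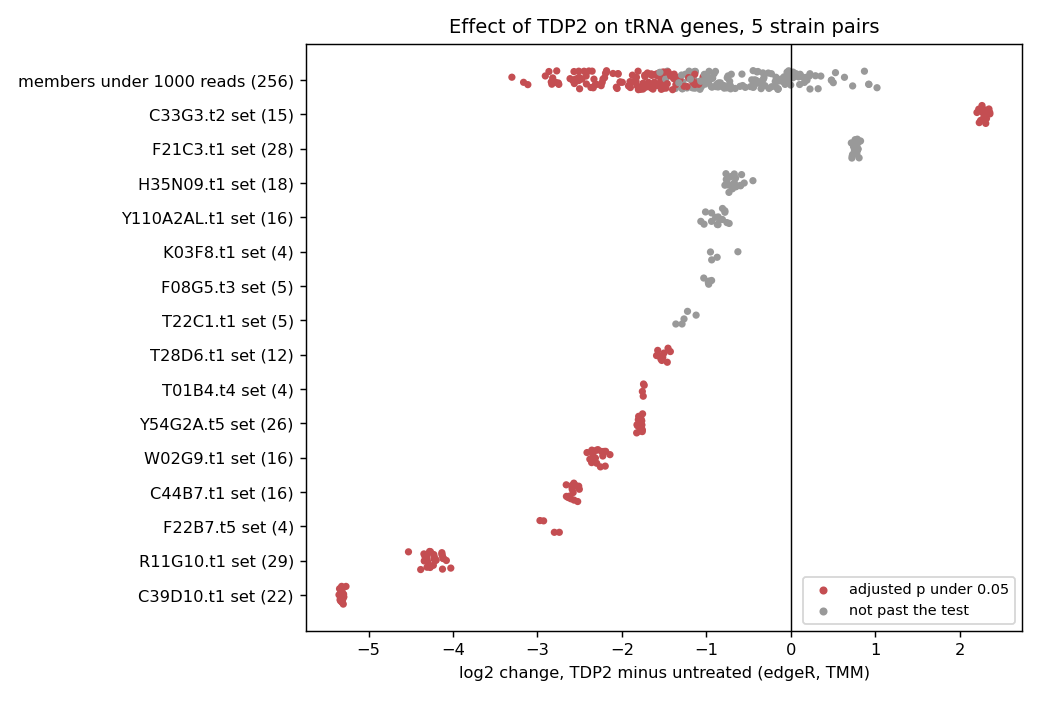
Fitted log2 change of each member, TDP2 minus untreated over 5 strain pairs (horizontal axis), by set (vertical axis, number of genes in brackets, 15 of the 16 sets and the members under 1000 reads), with genes at an adjusted p under 0.05 in red. The 22 genes of the C39D10.t1 set stand near −5.3 and the 15 of the C33G3.t2 set near 2.3. Genes of a set lie close together by definition, since sets were formed from agreeing counts.

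By length class, 186 of 266 members of 72 nt fell and 0 rose (median −1.87). Of the 112 members of 73 nt, 38 fell and 15 rose (−0.09). Among the 59 members of 82 nt, 17 fell and 0 rose (−0.94). The median was −1.54 on chromosome X and ranged from −1.52 (III) to −0.85 (II) on the autosomes. Members with an opposite ncRNA gene had a median of −1.48 and those without one −1.36. Adding the antisense reads of the opposite genes gave 22 higher and 238 lower, against 43.3% and 12.2% of all features.

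Among the TDP2 libraries, almost no member passed the test between a mutant and the control. The fit held 8 libraries in 5 genotype groups, with 3 residual degrees of freedom that all came from the tofu-6 alleles. The 3 mutants with 1 library were assumed to vary as those alleles do. All comparisons shared the 1 control library. In tofu-6, 0 of 508 members tested rose and 1 fell, against 0.0894% and 0.174% of all features, and 30 had an unadjusted p under 0.05. In pics-1, 0 rose and 0 fell (background 0.0179% and 0.0358%; 61 at an unadjusted p under 0.05). In prg-1 the counts were also 0 and 0 (0.0894% and 5.54%; 1), as they were in erh-2 (0.0581% and 0.112%; 68). DESeq2's test also called 0 members in all 4 mutants, with 68 (tofu-6), 112 (pics-1), 124 (erh-2) and 16 (prg-1) at an unadjusted p under 0.05.

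The member medians were −0.98 in tofu-6, −1.25 in erh-2, −1.43 in pics-1 and 0.20 in prg-1, against 0.14, −0.09, −0.02 and −0.11 over all features. Scaled to microRNA reads they were 0.71, 1.66, 0.07 and 2.21, so 3 of the 4 turned direction, and all features had 1.88, 2.79, 1.47 and 1.89. With assigned reads only, the prg-1 median turned to −0.24, against −0.54 over all features, and scaled to tRNA reads the member medians were 0.42, 0.62, 1.08 and 1.32, against 1.61, 1.75, 2.49 and 1.01 over all features. MicroRNAs took 1.63% to 4.10% of reads in the tofu-6 alleles, 0.810% in erh-2, 3.75% in pics-1 and 1.51% in prg-1, against 8.35% in control, and their part in the result was not tested.

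The member that fell in tofu-6 was F09E10.13, which the authors classed as tRNA and the annotation lists as an ncRNA gene (chromosome X, 1491155 to 1491238, 84 nt, in an intron). Its reads numbered 4 (it20), 5 (ust94), 0 (ust95) and 16 (yt2) in tofu-6, 1 in erh-2, 85 in pics-1 and 9 in prg-1, against 78 in control. The tofu-6 alleles all lay below control, while pics-1 did not. Scaled to the TMM-adjusted library size, this was 0.676 ± 0.635 CPM (counts per 1000000) in tofu-6 (SD, n = 4) and 8.09 in control. The fitted log2 change was −3.55 ± 0.91 (SE; edgeR adjusted p = 0.0410). The call was lost under 6 of the other settings and without it20, ust94 or ust95. In erh-2 the ratio of RPM was 0.00886 (95% counting interval 0.000222 to 0.0508) and the adjusted p was 0.116, and the gene was called there when yt2 was left out. In tofu-6, ZK1010.t1 stood next at −2.64 ± 1.13 (adjusted p = 0.696), with 2 to 9 reads in the alleles against 33 in control.

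None of the largest differences in the other mutants passed the test. In pics-1, Y97E10C.t1 had 0 reads against 20 in control, at least 5.68-fold lower by a floor of 3 counts in that library (adjusted p = 0.389). F02D10.t3 had 7 reads in pics-1 against 134 in control (−4.35 ± 1.41, adjusted p = 0.297). In erh-2, F47A4.t1 had 13 reads against 295 in control (−4.58 ± 1.39, adjusted p = 0.173). The largest differences in prg-1 were upward, and F14B4.t2 had 39 reads there against 8 in control (2.81 ± 1.44, adjusted p = 0.413).

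The most abundant set varied widely between the tofu-6 alleles. The C39D10.t1 set had 0.0677 (it20), 0.714 (ust94), 1.10 (ust95) and 0.280 (yt2) times the RPM of the control library, and 0.0491 times in erh-2, 0.128 in pics-1 and 0.321 in prg-1. Its mean was 834 ± 711 RPM per gene in tofu-6 (SD, n = 4) against 1540.3 in control. The ust95 allele was thus above control and the 3 others below. The summed msp genes, which encode sperm proteins, stood at 7.05 (it20), 13.1 (ust94), 116 (ust95) and 7.24 (yt2) RPM in these alleles, 1.41 in erh-2, 4.16 in pics-1 and 196 in prg-1, against 95.4 in control, and their part in the tRNA values was not tested. The Y54G2A.t5 set had 272, 248, 635 and 577 RPM per gene in it20, ust94, ust95 and yt2, 210.0 in erh-2, 337 in pics-1 and 248 in prg-1, against 1299 in control. All 7 mutant libraries lay below control at this set, and its median log2 changes of −1.68 in tofu-6, −2.20 in erh-2, −2.31 in pics-1 and −1.95 in prg-1 did not pass the test. The C44B7.t1 set ranged from 9.09 (it20) to 67.1 (yt2) RPM over the alleles, with 3.83 in erh-2 and 49.3 in control.

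**Figure D4:**
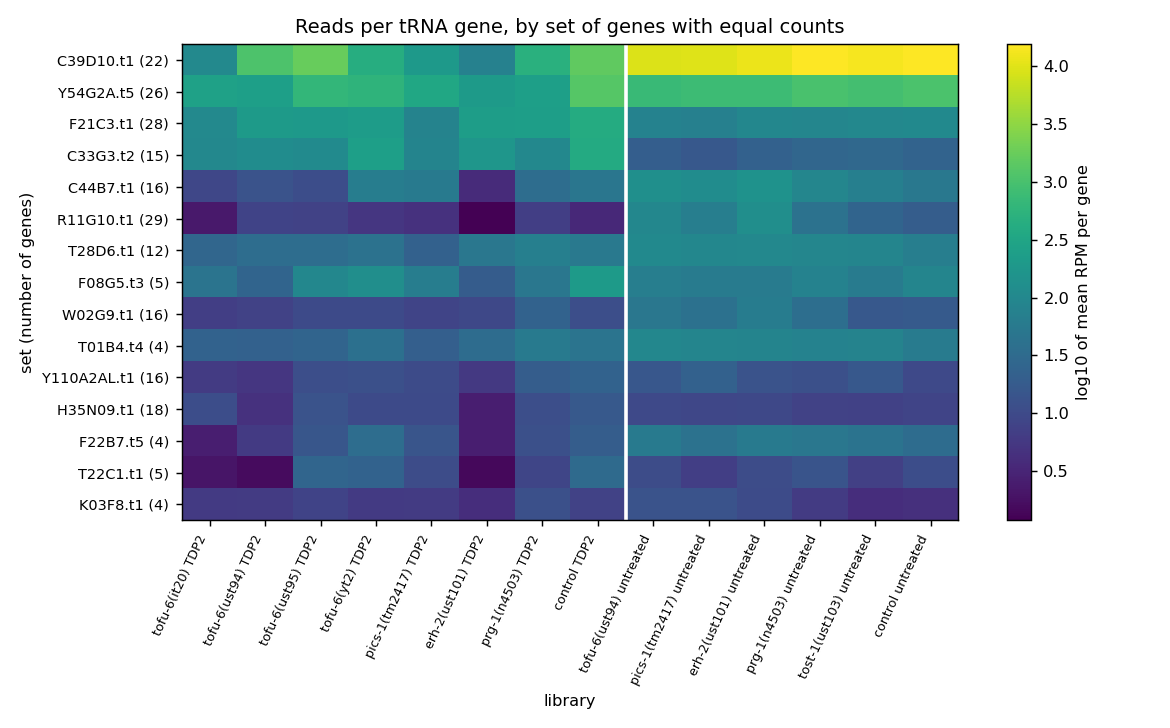
Mean RPM per gene (log10 colour scale) of 15 of the 16 sets of 4 or more genes (rows) in the 8 TDP2 libraries (left of the white line) and the 6 untreated libraries (right). The C39D10.t1 set is brightest in untreated libraries, while the C33G3.t2 and F21C3.t1 sets are brighter with TDP2.

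In the untreated libraries each mutant was compared with control as 1 library against 1, so no test was made. Members with more than a 2-fold difference in RPM were counted where both libraries together had 10 or more reads. In tofu-6(ust94), 216 of 509 members were higher and 12 lower (42.4% and 2.36%), against 33.5% and 6.35% of all features. In pics-1, 179 of 505 were higher and 17 lower, against 33.8% and 10.2% of all features, and in erh-2, 190 of 504 and 15, against 23.4% and 10.9%. In prg-1, 92 of 506 were higher and 2 lower, against 12.3% and 15.8%, and in tost-1, 8 of 493 and 15, against 17.1% and 7.54%. The median ratio of members was 1.64 in tofu-6, 1.52 in erh-2, 1.39 in pics-1, 1.26 in prg-1 and 0.947 in tost-1, against 1.65, 1.44, 1.65, 0.871 and 1.34 over all features. The median of the members was near that of all features in tofu-6 and erh-2, below it in pics-1 and tost-1, and above it in prg-1.

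These counts depended on the scaling. MicroRNAs took 13.5% of reads in tofu-6(ust94), 9.09% in erh-2, 10.4% in pics-1, 6.05% in prg-1 and 3.93% in tost-1, against 4.01% in control. Per microRNA read the median member ratios were 0.486, 0.671, 0.540, 0.839 and 0.967 in the same order. Medians over all features were not computed at this scaling. Stage and tissue markers differed as well: the summed vit-1 to vit-6 genes of the adult intestine had 16097 RPM in tofu-6, 15668 in erh-2, 15842 in pics-1, 5716 in prg-1 and 13174 in tost-1, against 7032 in control. The summed msp genes of sperm had 8.32, 0.957, 2.75, 54.9 and 1.73 RPM in the same order, against 22.5 in control. The mir-35 to mir-42 microRNAs of oocytes and embryos had 22318, 16716, 15974, 8667 and 8176 RPM, against 12118 in control. Their part in the tRNA values was not tested.

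Within tRNA the sets had unlike ratios. Per gene the R11G10.t1 set had 94.9 RPM in tofu-6(ust94), 129 in erh-2, 69.9 in pics-1, 42.3 in prg-1 and 25.3 in tost-1, against 19.7 in control. In that order its ratios to control were 4.82 (95% counting interval 4.67 to 4.98), 6.56 (6.35 to 6.78), 3.55 (3.43 to 3.67), 2.15 (2.08 to 2.23) and 1.28 (1.23 to 1.34). The erh-2 library was thus the highest and tost-1 the closest to control. These intervals take each read as counted once, which cannot be told from the counts. They are too narrow if reads were counted at several genes. The W02G9.t1 set had ratios of 2.98, 3.73, 2.34, 2.09 and 0.929 in the same order, and the C44B7.t1 set 2.44, 2.77, 2.22, 1.70 and 1.31. Per microRNA read the ratios of the R11G10.t1 set stayed above 1, at 1.43, 2.90, 1.37, 1.43 and 1.31, while those of the W02G9.t1 set were 0.886, 1.65, 0.904, 1.39 and 0.949 and those of the C44B7.t1 set 0.725, 1.22, 0.858, 1.13 and 1.34.

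The abundant sets stood at or below control. The C39D10.t1 set had ratios of 0.605 (0.604 to 0.606), 0.760 (0.758 to 0.761), 0.624 (0.623 to 0.625), 0.999 (0.997 to 1.00) and 0.888 (0.887 to 0.890) in the same order. The Y54G2A.t5 set had 0.700, 0.751, 0.746, 0.987 and 0.861. The F21C3.t1 set had 0.761, 0.894, 0.692, 0.876 and 0.930. As a part of the tRNA reads, the R11G10.t1 set made up 1.09% in tofu-6, 1.22% in erh-2, 0.794% in pics-1, 0.312% in prg-1 and 0.210% in tost-1, against 0.146% in control. With 1 library each, these ratios have no replicate check.

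**Figure D5:**
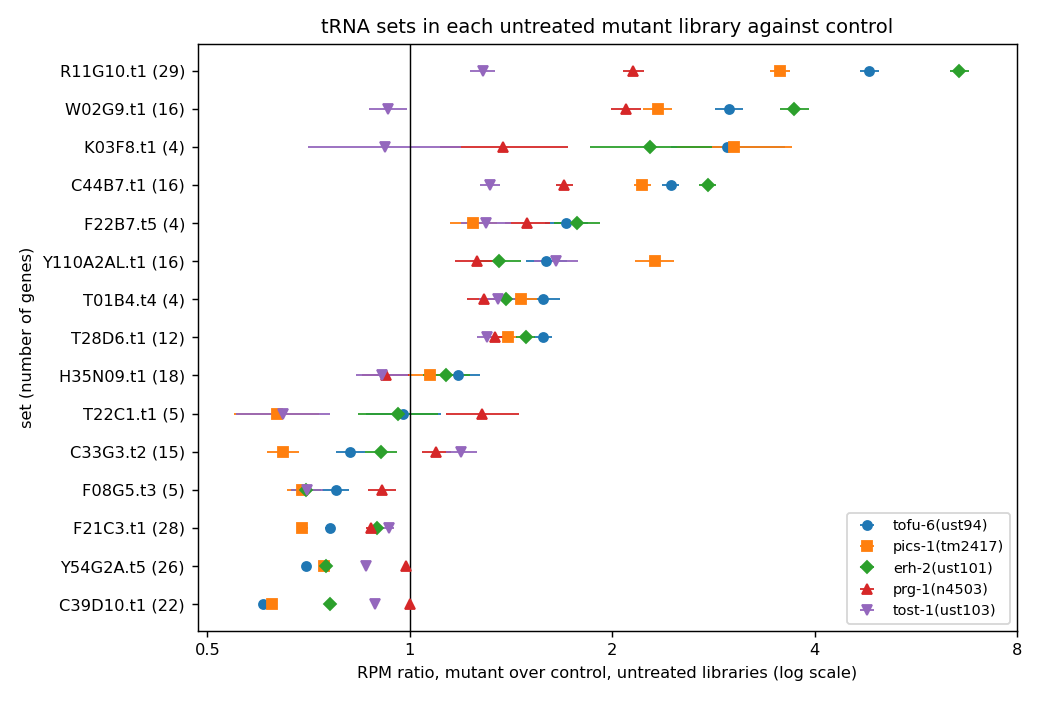
RPM ratio of each mutant to control in untreated libraries (horizontal axis, log scale) for 15 of the 16 sets of 4 or more genes, with 95% counting intervals. The R11G10.t1 set, at 1.28 to 6.56, lies highest in every mutant but tost-1, where the Y110A2AL.t1 set does, and the C39D10.t1 set lies at 0.605 to 0.999.

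Among single genes with 100 or more reads in the 2 libraries, F14B4.t2 on chromosome I had the highest ratio in tofu-6, 6.09 (3.88 to 10.04; 213 reads against 21 in control), and in erh-2, 7.93 (5.05 to 13.1; 197 against 21). F46G11.t2, of the R11G10.t1 set, followed in tofu-6 at 5.59, and T22F3.t3 of the same set in erh-2 at 7.92. In pics-1 the highest were F42A10.t2 at 5.36 (168 reads against 21) and C53C7.t2 at 4.96. In prg-1, Y18H1A.t1 was highest at 2.91, and in tost-1, F08F1.t2 at 2.42. Some genes were among the lowest in several mutants. F28F8.t4 of 82 nt on chromosome V stood at 0.243 in tofu-6 (51 reads), 0.174 in erh-2 (26), 0.470 in tost-1 (58) and 0.520 in prg-1 (94), against 126 reads in control. B0395.t1, also of 82 nt, stood at 0.0824 in pics-1 (16 reads), 0.477 in prg-1 and 0.440 in tost-1, against 130 reads in control. ZC455.t1 of 82 nt stood at 0.137 in pics-1 and 0.145 in erh-2, and K11C4.t1 of 85 nt at 0.226 in tofu-6. The mutants share 1 control library, so a high count there lowers every ratio.

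By length, the median ratio in tofu-6 was 2.22 over 266 members of 72 nt, 1.28 over 112 of 73 nt, 1.63 over 59 of 82 nt and 3.12 over 24 of 84 nt. In erh-2 these medians were 2.13, 1.15, 1.33 and 2.94. Members with fewer than 1000 reads had higher median ratios than those with more: 2.28 against 1.04 in tofu-6, 1.99 against 1.00 for erh-2, 1.73 against 0.844 in pics-1 and 1.46 against 1.11 in prg-1. In tost-1 they had 0.891 against 0.980.

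Proteins that act on tRNA were followed through their own genes. The first list held 36 aminoacyl-tRNA synthetase genes, whose enzymes load tRNAs with amino acids, and 32 of them were found in the tables. With TDP2, sense reads rose at 0 of 32 and fell at 13 (median −0.66), among them ears-1 at −1.26 ± 0.29 (edgeR adjusted p = 0.00323), iars-2 at −1.28 ± 0.29 (adjusted p = 0.00290) and qars-1 at −1.20 ± 0.29 (adjusted p = 0.00442). These encode a glutamyl, an isoleucyl and a glutaminyl enzyme. Antisense reads rose at 32 of 32 (median 4.05). Of all features 42.9% rose and 12.4% fell in this fit, with a median of 0.68. That background pools sense and antisense counts of all classes, and none is given here for each strand. Whether the strand difference is particular to the listed genes was therefore not tested. The second list held 17 genes of tRNA transcription, processing and modification, of which 16 were found: sense reads rose at 0 and fell at 6 (−0.72), and antisense reads rose at 16 of 16 (3.92). In the mutant TDP2 libraries 0 genes of either list passed the edgeR test on either strand, and at most 3 of a list had an unadjusted p under 0.05, those being synthetase genes in erh-2 antisense.

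Reads antisense to tRNA genes themselves were few. The 509 members had 880 antisense reads in all, and 229 members had none. The libraries held 66 to 146 of these reads with TDP2 and 3 to 11 without. Y40A1A.5, listed in the annotation as an ncRNA gene, had the most with 105 against 3891 sense reads, and all 105 lay in TDP2 libraries. F10C1.t1 followed with 55 antisense against 922 sense reads, and C53C7.t3 with 22 against 849.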

How the data were processed

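For each of 14 libraries the authors deposited whole-number read counts per transcript on both strands, with a class per row. The reads were aligned by the authors with Bowtie2, as the submitters' processing notes name it. No version, build, counter or rule for multiply matching reads is stated for it (not given in the sources used here). Counts were summed per gene and strand, and rows with no class were left out. Positions, lengths and biotypes came from the WBcel235 annotation (Ensembl release 115), matched by gene identifier for all 509 members. The members, lists and tests were chosen with earlier results of these data known.

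Two-sided quasi-likelihood tests used edgeR 4.0.16 (TMM) over all features reaching 10 reads in 1 library and 30 in total, with Benjamini-Hochberg adjustment and a threshold of 0.05. TDP2 was compared with no treatment over 10 libraries with strain as a block, 4 residual degrees of freedom and 21673 features. The pairing comes from the strain names in the labels. Mutants were compared with control over the 8 TDP2 libraries (22372 features, 3 residual degrees of freedom). Both fits also pool the spread over all features, so the tests do not rest on the residual degrees of freedom alone. The SE of a fitted change is its absolute value divided by the square root of the F value of its test. Untreated mutants were compared by ratios of RPM with exact counting intervals, called past 2-fold, counts under 3 being set to 3. DESeq2 1.42.0 was an alternative. The fits were tested on simulated data.

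Named genes were the 10 members highest in mean RPM, up to 5 called higher and 5 called lower per fit (the 3 largest changes where fewer than 3 were called, not all of them printed), the 2 highest and 2 lowest ratios per untreated mutant among members with 100 or more reads (the extremes printed), those next to the threshold and the 3 with most antisense reads. Genes are grouped by count profile because the planned sums by amino acid had no annotation to rest on. Sets needed members with 1000 or more reads and a chi-square p above 0.0001. Of the 16 sets, 1 is not reported here.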

Additional observations from a re-analysis of the deposited data

Results flagged for a closer look

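Over the 4 tofu-6 TDP2 libraries, 27 groups of values (sets or shares) were checked for 1 library far from the rest, which chance gives in about 1 of 20 cases, and 3 sets had one. The yt2 library stood apart at the C33G3.t2 set, with 248 RPM per gene against 99.6 to 121 in the other alleles. It also stood apart at the C44B7.t1 set, with 67.1 RPM against 9.09 to 13.6. The ust95 library stood apart at the K03F8.t1 set, with 8.08 RPM against 5.86 to 6.17.

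At 3 sets the strains moved in opposite directions with TDP2, and the difference between strains was not tested. The Y54G2A.t5 set had a log2 ratio, TDP2 over untreated, of −2.06 to −1.22 in the 4 mutants and 0.30 in control. The Y110A2AL.t1 set had −1.53 in tofu-6(ust94), −1.23 in erh-2 and −1.14 in pics-1 but 0.67 in prg-1 and 1.25 in control. The H35N09.t1 set had −1.84 in erh-2 and −1.06 in tofu-6(ust94) but 0.18 in pics-1, 0.60 in prg-1 and 1.00 in control.

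Reads antisense to ncRNA genes opposite the members were not part of the tRNA counts. They numbered 2618715 in untreated control, and 169769 to 1018178 in TDP2 libraries against 2301295 to 3761176 in untreated ones.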

How the results depend on the processing

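For TDP2 against untreated (15 members higher, 273 lower), higher calls were 43 with DESeq2 size factors, 47 with assigned reads only, 94 scaled to microRNA reads, 386 scaled to tRNA reads and 44 with DESeq2's test. Of all features 43.3%, 46.7%, 61.9%, 95.5% and 42.8% were higher under these settings in turn. Lower calls were 51 scaled to microRNA reads and 22 scaled to tRNA reads, against 1.73% and 0.807% of all features. With sets summed, chosen after seeing the data, there were 1 and 137, since fewer features were tested. Without the replicate block 15 were higher and 220 lower, against 42.4% and 9.78% of all features. Leaving out 1 pair gave 15 to 43 higher, the 43 without pics-1, and 226 to 389 lower. Of all features 38.6% to 44.8% were then higher and 8.41% to 19.3% lower. The 389 and the 19.3% both came without the prg-1 pair. The 1 lower call in tofu-6 became 0 with DESeq2 size factors, assigned reads only, either scaling to microRNA or tRNA reads, no filter or DESeq2's test, and was 0 to 1 with an allele left out. In erh-2 lower calls were 0 to 1 with an allele left out, 1 without yt2. The cause of these changes was not tested.

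For the untreated ratios, scaling to microRNA reads gave 6 higher and 262 lower in tofu-6, 9 and 232 in pics-1, 48 and 199 in erh-2, and 9 and 16 in prg-1. Scaling to tRNA reads gave 5 lower in tofu-6, 272 higher and 10 lower in pics-1, and 16 and 8 in tost-1. With 100 or more reads in the 2 libraries the counts were 118 and 7, 104 and 8, 92 and 6, 42 and 1, and 1 and 3 over fewer members, with tofu-6 first and then pics-1, erh-2, prg-1, tost-1. Shares over all features were not computed under these settings, and a scaling shifts the ratios of all features together. Whether these counts are particular to tRNA therefore cannot be told from them alone. Members were set beside all features only at the main scaling, as given above. The share difference of −3.15 became −1.43 per microRNA read and −0.95 without the 22 genes, and −3.43 to −2.94 with a pair left out. Of 163 values recomputed for these results, 118 kept their call or size. Among single genes, 252 of 262 did and 0 changed sign. Most of the 118 were counts of 0 calls in the mutant TDP2 comparisons that stayed at 0. Those had no call to lose, so the 118 do not measure how stable the calls were.

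Sums by amino acid and by identical sequence were not run, for want of an annotation and of sequences here. Reads were not placed on single gene copies with certainty, and untreated mutants have no replicate. The spread of each gene rests on 3 or 4 residual degrees of freedom and on pooling over all features.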
